A study of Mus musculus with 8 samples.

Results

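The genes described here are the amino acid transporter families of the mouse, taken as every gene whose symbol belongs to Slc1, Slc3, Slc6, Slc7, Slc36, Slc38 or Slc43. There were 63 such genes among the 55401 of the expression table, and 35 of them had enough counts to be tested. They were measured in primary mandibular fibrochondrocytes, the cells of the mandibular condylar cartilage of the temporomandibular joint, in 4 libraries of NG2/CSPG4 knockout (NG2ko) cells and 4 libraries of wild type (WT) cells. Cells came from pups of 10 to 14 days by the labels and of 14 days by the sequencing methods, grew without further treatment in AMEM medium with heat-inactivated serum and L-glutamine, and gave RNA at passage 4. The knockout is a germline deletion of Cspg4, present in every cell of the animal, made from the allele Cspg4tm1a(KOMP)Wtsi by a cross to Cre. The supplied knockout line, which the paper names TM1b-6N, was backcrossed to C57BL/6J for a small number of generations. It was then bred as a homozygous colony, and the WT mice were C57BL/6J. Any strain background left from the supplied line cannot be told apart from genotype here. The sex of the pups is not given in the sources used here.

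Amino acid transporters set how much of each amino acid a cell holds. Heterodimeric carriers pair a heavy chain, which takes the complex to the plasma membrane, with a light chain of the Slc7 family, which does the transport and mostly exchanges 1 amino acid for another. Sodium-coupled carriers of the Slc1, Slc6 and Slc38 families drive uptake against a gradient, and some Slc36 and Slc38 proteins sit on the lysosome, where amino acids are sensed by mTORC1. The same families hold carriers of creatine, taurine, noradrenaline and nucleobases. Cartilage cells draw on these carriers for the glycine, proline and glutamine that collagen synthesis consumes.

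Total counts ran from 67197864 to 80300263 in NG2ko libraries and from 60317187 to 83668935 in WT libraries. Levels are given in CPM, counts scaled by TMM to library size. Cspg4 itself had 13.5, 8.71, 6.93 and 8.33 CPM in the NG2ko libraries and 228, 215, 201 and 241 CPM in the WT libraries, which fits the labels. All 10 fibrochondrocyte markers were tested, and 5 were called higher in NG2ko, Col2a1 and Sox9 among them, and 0 lower. Among all tested genes, 5.45% were called higher and 6.75% lower. Acan did not pass, nor did Prg4, which had a log2 fold change of -0.40. Myeloid markers also differed: 13 of 15 tested were higher in NG2ko, and the 16 listed summed to 349 to 406 CPM in NG2ko and 101.1 to 121 CPM in WT. Endothelial markers summed to 0.372 to 1.34 CPM in NG2ko and 0.980 to 1.47 CPM in WT, epithelial markers to 1.80 to 2.90 and 1.37 to 2.23 CPM with Krt14 at 0, neural markers to 13.8 to 15.6 and 15.4 to 17.7 CPM with Snap25 at 0, and muscle markers to 1.32 to 2.08 and 0.871 to 2.37 CPM with Myod1 and Myh3 at 0. Y-linked transcripts summed to 188 to 202 CPM in NG2ko libraries and 0 to 0.286 CPM in WT libraries, so that genotype and sex of the pups cannot be told apart in any result below. The part of the myeloid transcripts in the transporter differences was not tested. In RNA of whole cultures, a lower value from fewer cells of a type and one from less RNA per cell cannot be told apart.

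NG2ko cells carried more transcripts of 8 of the 35 tested transporters, and none passed the test in the other direction. The 8 were Slc3a2 and its light chain Slc7a5, the cationic carriers Slc7a1 and Slc7a3, the glutamine carriers Slc1a5 and Slc38a2, the glycine carrier Slc6a9 and the leucine carrier Slc43a1. Their log2 fold changes ran from 0.21 to 0.99, with adjusted p under 0.05 in edgeR's quasi-likelihood test over 17190 genes. Among all tested genes, 5.45% were called higher and 6.75% lower, against 22.9% of the tested transporters higher and 0 lower. Of the 22 transporters with at least 10 CPM in either genotype, 7 were called higher, where 6.76% of all genes at that level were. The median log2 fold change was 0.14 over the tested transporters and 0.02 over all tested genes, and 23 of the 35 were above 0 and 12 below. By family, edgeR called 1 of 1 tested Slc3 gene, 1 of 5 light chains, 2 of 4 cationic Slc7 carriers, 1 of 6 Slc1, 1 of 7 Slc38, 0 of 2 Slc36, 1 of 7 Slc6 and 1 of 3 Slc43 genes higher.

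Without adjustment, 9 transporters were higher and 3 lower at a p under 0.05 in edgeR. For such unadjusted counts, here and below, the share of all tested genes was not computed. DESeq2 called 8 transporters higher and 1 lower, against 1263 higher and 1544 lower among all 17190 tested genes. None of the 35 passed the thresholds named in the study's methods, an unadjusted p under 0.05 with a log2 fold change above 1 or below -1, which 3.21% of all tested genes passed. The 8 called transporters were also the 8 in which every NG2ko library lay above every WT library, a pattern that 9.81% of all tested genes showed. The opposite pattern was seen in 1 transporter, Slc38a1, and in 10.1% of all tested genes. Nearest the threshold were Slc38a2 among the called transporters, with an adjusted p of 0.0307, and Slc38a1 among the others, with 0.114, both from edgeR.

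**Figure D1:**
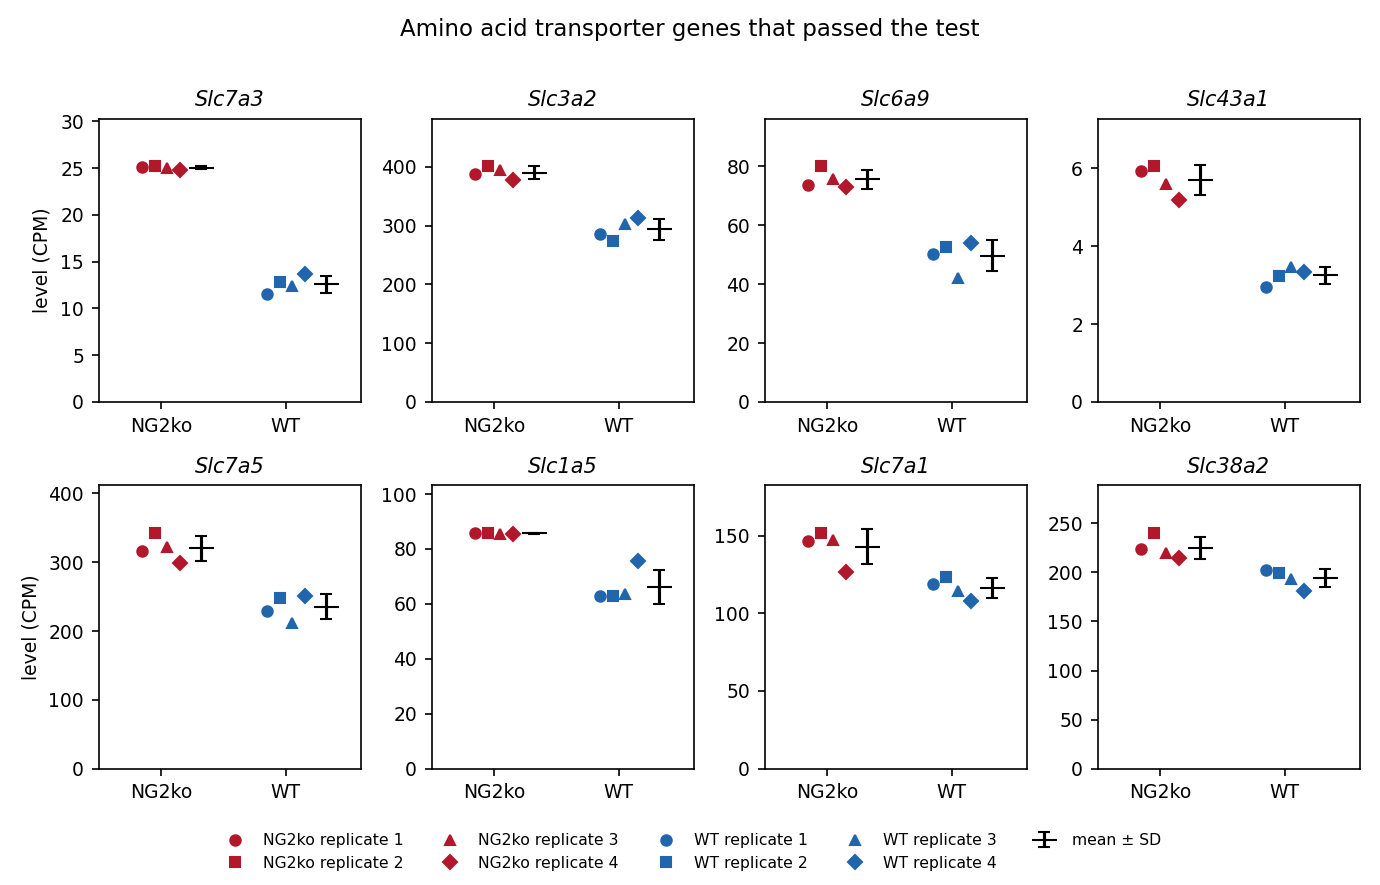
Level of the 8 called transporters in each library, in CPM on axes that start at 0, with NG2ko in red and WT in blue, and the mean with its SD (n = 4) in black. In every panel the 4 NG2ko points lie above the 4 WT points, by the largest ratio for Slc7a3 (24.8 to 25.2 CPM against 11.5 to 13.7 CPM).

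**Figure D2:**
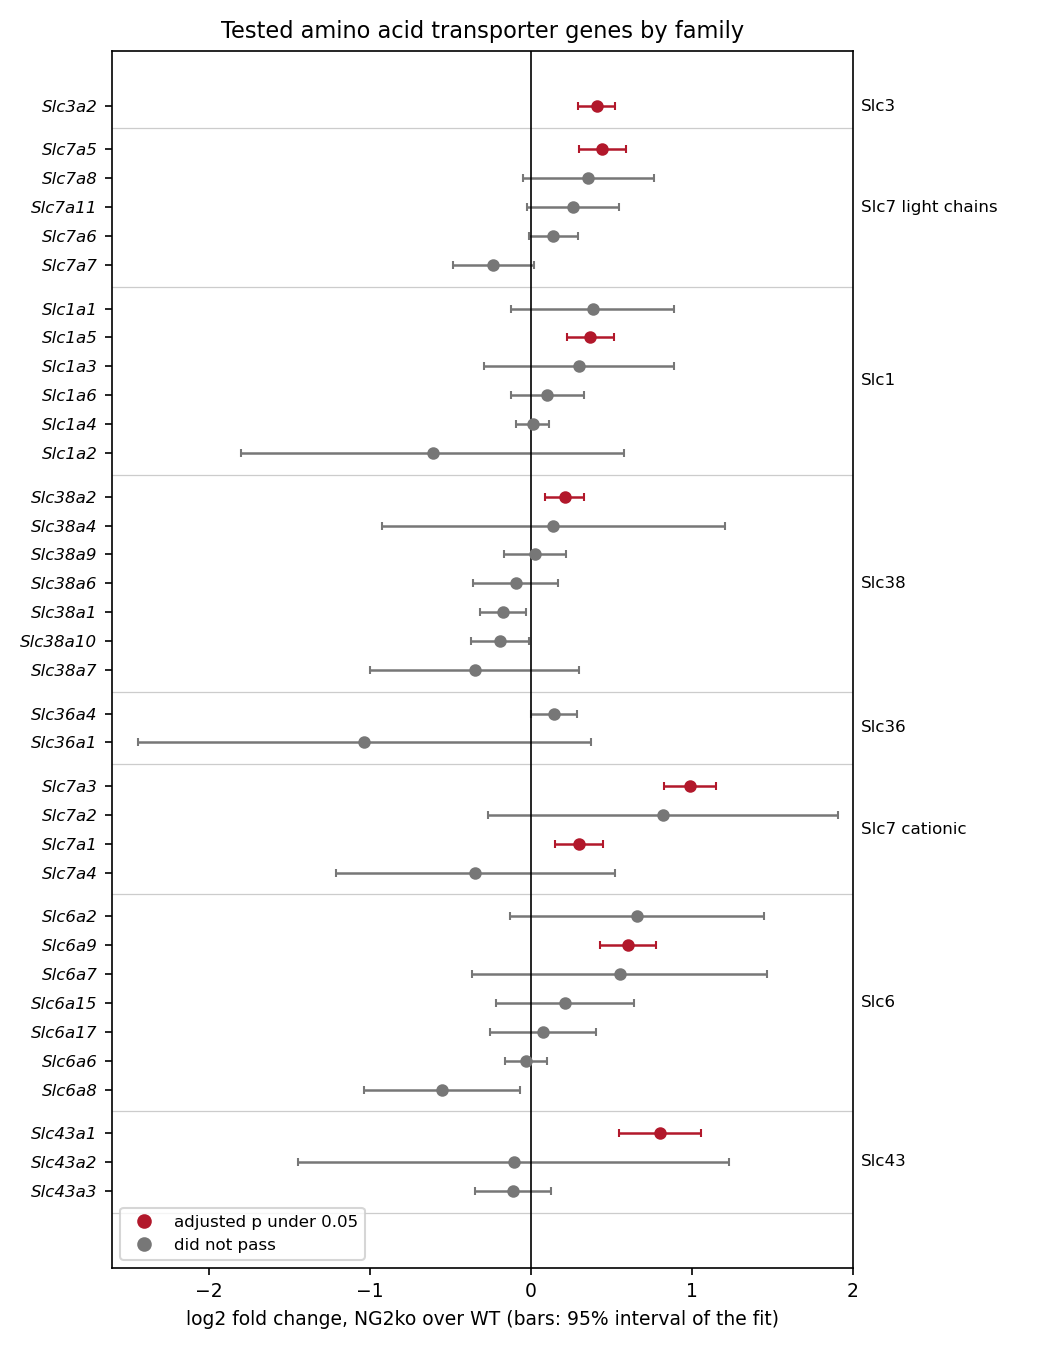
Log2 fold change of NG2ko over WT for the 35 tested transporters, grouped by family, with 95% intervals of the edgeR fit and called genes in red. The intervals are narrow for Slc3a2 (0.29 to 0.53) and Slc38a9 (-0.16 to 0.22) and wide for Slc36a1 (-2.44 to 0.37) and Slc43a2 (-1.45 to 1.23).

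Several of these carriers are known targets of ATF4, a factor that cells make under amino acid shortage and under other stresses. It binds C/EBP-ATF response elements (TGATGNAA, N any base). Promoter sequences of the called transporters and of the 3 tested transporters with that element are shown because the called genes moved in 1 direction. Windows of 300 bases, 250 before to 50 after a RefSeq start, were at hand for 45 of the 63 transporters in GRCm38.p6, and for 5 of the 8 called ones. Slc7a3, Slc7a5 and Slc1a5 are named only. The called genes are given from base -100 to -1 of the RefSeq start, 5′ to 3′ on the gene's strand, with matches in capitals on either strand: GGGCGG, the GC box, read as CCGCCC on the other strand, and CACGTG, the E-box, which is its own reverse complement. They lie at chr19:8713898-8713997 (minus strand), chr2:84840223-84840322 (plus), chr4:117835158-117835257 (plus), chr5:148399905-148400004 (minus) and chr15:96699729-96699828 (minus). For Slc3a2, Slc43a1 and Slc6a9 the RefSeq start lies inside the span that the expression table gives the gene.
Slc3a2: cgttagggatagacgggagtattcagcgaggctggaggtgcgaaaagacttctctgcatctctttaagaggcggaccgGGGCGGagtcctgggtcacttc
Slc43a1: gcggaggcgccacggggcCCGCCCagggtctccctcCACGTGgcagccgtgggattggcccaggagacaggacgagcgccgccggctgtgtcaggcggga
Slc6a9: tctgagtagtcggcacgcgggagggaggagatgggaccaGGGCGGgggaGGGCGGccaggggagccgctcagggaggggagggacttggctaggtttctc
Slc7a1: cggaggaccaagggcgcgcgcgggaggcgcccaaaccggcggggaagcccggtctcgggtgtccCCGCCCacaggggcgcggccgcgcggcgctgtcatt
Slc38a2: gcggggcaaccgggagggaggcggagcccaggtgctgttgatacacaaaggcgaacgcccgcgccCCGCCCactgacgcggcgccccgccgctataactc

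The C/EBP-ATF element was in 3.97% of 32851 RefSeq windows, in 5 of the 66 transporter windows and in no window of the 5 called genes. A GC box was in a window of all 5, but also of 18 of the 23 tested transporters with a window, called or not. Counted by window, a GC box was in 34 of the 66 transporter windows, against 35.7% of all windows. An E-box was in 1 called gene, Slc43a1 at base -64. By window it was in 9 of the 66, against 7.15% of all windows. The C/EBP-ATF element was found in the windows of Slc7a11, Slc1a4, Slc7a7 and Slc6a21, of which the last had 0 counts and the others did not pass the test. In Slc7a11 (chr3:50443614-50443713, minus strand) there were 2 copies facing each other, first bases at -66 and -47. Those of Slc1a4 (chr11:20332704-20332763, minus) and Slc7a7 (chr14:54418045-54418094, minus) lie at -4 and -141, and Slc7a7 had another at -1, outside the stretch shown. The capitals CCGCCC in Slc1a4 are a GC box. These matches describe letters in a window, and elements outside it, such as those in introns, were not searched.
Slc7a11: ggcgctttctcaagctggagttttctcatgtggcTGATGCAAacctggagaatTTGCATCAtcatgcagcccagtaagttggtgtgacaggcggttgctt
Slc1a4: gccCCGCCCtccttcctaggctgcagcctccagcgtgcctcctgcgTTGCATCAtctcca
Slc7a7: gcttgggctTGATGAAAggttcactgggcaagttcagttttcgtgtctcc

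The heavy chain Slc3a2 (ENSMUSG00000010095, chr19:8706882-8723369, minus strand, GRCm38), also known as CD98hc or 4F2hc, was the most abundant transporter transcript per length in both genotypes. Its level was 387, 402, 394 and 378 CPM in the NG2ko libraries and 285, 274, 303 and 313 CPM in the WT libraries. All NG2ko libraries exceeded all WT libraries, and the groups were separated by more than the spread within either. NG2ko exceeded WT by 0.41 ± 0.05 on the log2 scale (fit and its standard error; edgeR adjusted p = 0.000672), a 1.33-fold difference.

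Slc7a5 (ENSMUSG00000040010, chr8:121881150-121907694, minus strand), the light chain LAT1 that exchanges glutamine for leucine and other large neutral amino acids, moved with its heavy chain. It had 317, 343, 322 and 299 CPM in NG2ko and 229.7, 248, 212 and 251 CPM in WT, again without overlap. The difference was 0.44 ± 0.07 on the log2 scale (standard error; edgeR adjusted p = 0.00161), or 1.36-fold. By the authors' FPKM, which divides by transcript length, Slc7a5 took 84.7% ± 0.978 of the light chain transcripts that pair with Slc3a2 in NG2ko and 81.4% ± 1.53 in WT (SD, n = 4 each). Slc7a6 followed with 11.3% ± 1.16 in NG2ko and 13.5% ± 1.46 in WT, and each of Slc7a7, Slc7a8 and Slc7a11 took under 3% on average in either genotype.

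Heavy chain and light chain transcripts stood at near equal levels in both genotypes. The summed light chains reached 93.5 ± 3.66 FPKM in NG2ko and 69.4 ± 3.45 FPKM in WT, and Slc3a2 101.4 ± 1.90 FPKM in NG2ko and 74.3 ± 4.48 FPKM in WT. Slc3a2 divided by this sum gave 1.09 ± 0.0223 in NG2ko and 1.07 ± 0.0965 in WT (SD, n = 4 each), and the ranges of this ratio over libraries overlapped. These ratios and shares are descriptions of the FPKM values and were not tested.

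**Figure D3:**
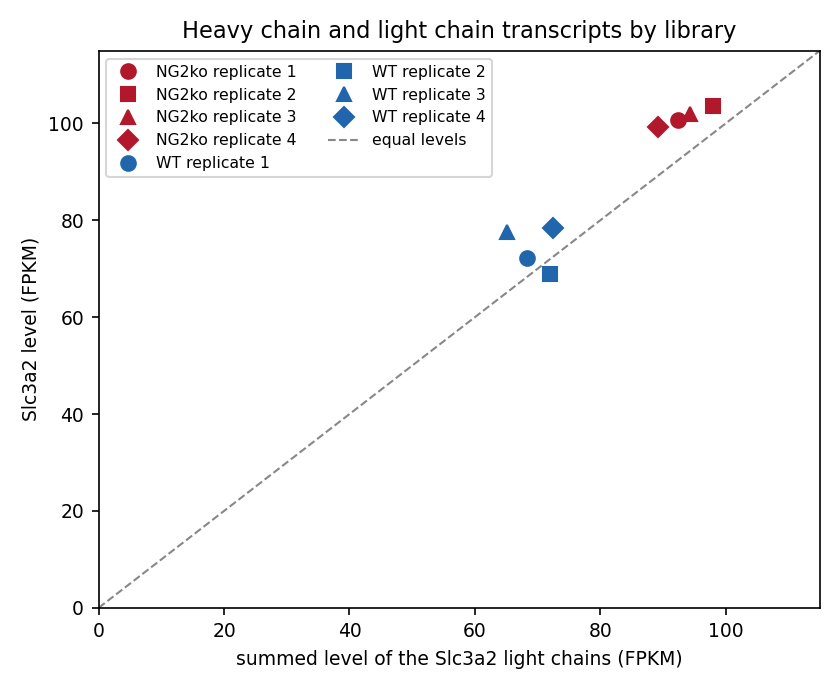
Level of Slc3a2 against the summed level of its light chains Slc7a5, Slc7a6, Slc7a7, Slc7a8, Slc7a10 and Slc7a11, both in FPKM, 1 point for each library, with NG2ko in red, WT in blue and a dashed line of equal levels. Both genotypes lie near the line, NG2ko at about 93.5 FPKM of light chains and WT at about 69.4 FPKM.

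The other 4 tested light chains did not pass. Slc7a6 (y+LAT2, an exchanger of cationic for neutral amino acids) had 51.9, 47.7, 57.6 and 53.4 CPM in NG2ko and 49.8, 45.7, 49.9 and 45.6 CPM in WT, a log2 fold change of 0.14 with a 95% interval of -0.01 to 0.29. Slc7a11 (xCT, which imports cystine for glutathione in exchange for glutamate) had 18.4, 20.3, 14.9 and 15.6 CPM in NG2ko and 14.2, 17.4, 13.5 and 12.5 CPM in WT. Its log2 fold change was 0.26 (interval -0.02 to 0.55, adjusted p = 0.237, edgeR), and its groups overlapped. Slc7a7 and Slc7a8 were below 10 CPM in both genotypes, with log2 fold changes of -0.23 and 0.36. Slc7a7 is the y+LAT1 carrier that macrophages use, and its mean was 5.82 CPM in NG2ko and 6.83 CPM in WT. The part of myeloid cells in its level was not tested.

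The glutamine carrier Slc1a5 (ASCT2, ENSMUSG00000001918, chr7:16781340-16798274, plus strand) rose in NG2ko. It had 86.0, 85.9, 85.5 and 85.5 CPM in NG2ko and 63.0, 62.9, 63.7 and 75.5 CPM in WT, so that the NG2ko libraries were nearly alike and WT replicate 4 stood above the other WT libraries. Its difference of 0.37 ± 0.07 on the log2 scale (standard error; edgeR adjusted p = 0.00458) became 0.44 without WT replicate 4. Its relative Slc1a4 (ASCT1, for alanine, serine and cysteine) did not pass, with 153, 153, 153 and 145 CPM in NG2ko and 146, 154, 145 and 154 CPM in WT. The interval of its log2 fold change was -0.09 to 0.11. Within the Slc1 family, Slc1a4 took 52.8% ± 1.13 of the FPKM in NG2ko and 57.6% ± 2.08 in WT, and Slc1a5 took 28.2% ± 0.674 in NG2ko and 23.9% ± 1.36 in WT (SD, n = 4 each).

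The glutamate carriers of the family varied more. Slc1a3 (GLAST) had 39.6, 65.2, 39.7 and 37.1 CPM in NG2ko and 52.8, 33.3, 32.6 and 29.0 CPM in WT, where a single library in each genotype stood above the rest. Its log2 fold change of 0.30 had an interval of -0.29 to 0.89, and was 0.07 without NG2ko replicate 2 and 0.52 without WT replicate 1. Slc1a6 (EAAT4) had 17.2, 17.3, 17.4 and 19.2 CPM in NG2ko and 16.4, 14.4, 15.6 and 19.8 CPM in WT and did not pass either. Slc1a1 and Slc1a2 had means under 2 CPM in both genotypes.

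Slc38a2 (SNAT2, ENSMUSG00000022462, chr15:96687392-96699730, minus strand) is the sodium-coupled system A carrier that cells are known to induce when amino acids run short. It had 224, 240.5, 219.7 and 215 CPM in NG2ko and 203, 199.6, 193 and 181 CPM in WT. The groups did not overlap, though the lowest NG2ko library was close to the highest WT library. At 0.21 ± 0.05 on the log2 scale (standard error; edgeR adjusted p = 0.0307) the difference was the smallest of the 8. Its call was lost on leaving out NG2ko replicate 1 (adjusted p = 0.0777), 2 (0.0793) or 3 (0.0641) or WT replicate 3 (0.0660) or 4 (0.0657).

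Other Slc38 members ran the other way or near 0, and none passed. Slc38a1 (SNAT1, which lies near Slc38a2 on the chromosome) had 58.0, 61.8, 60.8 and 57.5 CPM in NG2ko and 71.1, 72.3, 63.1 and 62.2 CPM in WT. All NG2ko libraries lay below all WT libraries, with a log2 fold change of -0.17 ± 0.06 (standard error; edgeR adjusted p = 0.114). Slc38a10, a carrier of glutamine, glutamate and aspartate, was the most abundant of the family per length, and had 326, 362, 349 and 321 CPM in NG2ko and 379, 377, 343 and 450.2 CPM in WT (log2 fold change -0.19, adjusted p = 0.169, edgeR). By FPKM, Slc38a10 took 56.7% ± 1.01 of the family in NG2ko and 60.02% ± 1.87 in WT, and Slc38a2 27.3% ± 1.35 in NG2ko and 22.1% ± 2.77 in WT (SD, n = 4 each).

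Neither the tested Slc36 carriers nor those known from the lysosome passed the test. Slc36a1 (PAT1, a proton-coupled exporter of small amino acids) had the largest log2 fold change in size of the 35, -1.03, yet an interval of -2.44 to 0.37 and an adjusted p of 0.343 (edgeR). Its level was 16.5, 49.6, 14.8 and 15.2 CPM in NG2ko and 61.7, 59.7, 57.8 and 17.0 CPM in WT. In each genotype 3 libraries lay close together and the remaining library lay near the level of the other genotype. Without NG2ko replicate 2 the log2 fold change was -1.66 (adjusted p = 0.0936) and without WT replicate 4 it was -1.32 (adjusted p = 0.182), both from edgeR.

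Slc38a7, a lysosomal glutamine exporter, had 33.2, 37.3, 56.8 and 34.5 CPM in NG2ko and 60.7, 40.6, 34.8 and 69.9 CPM in WT, with overlapping groups. Slc36a4, a proline and tryptophan carrier, had 46.5, 45.8, 48.9 and 46.3 CPM in NG2ko and 41.4, 47.2, 40.7 and 40.2 CPM in WT. Its log2 fold change was 0.14 (adjusted p = 0.186, edgeR), and it passed without WT replicate 2 (adjusted p = 0.0410). Slc38a9, the lysosomal arginine sensor of mTORC1, had 8.79 ± 0.416 CPM in NG2ko and 8.62 ± 0.511 CPM in WT (SD, n = 4 each), a log2 fold change of 0.03.

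Among the carriers of arginine, lysine and ornithine, Slc7a3 and Slc7a1 rose. Slc7a3 (CAT3, ENSMUSG00000031297, chrX:101079210-101085405, minus strand) had the largest log2 fold change of the called transporters. It had 25.1, 25.2, 25.0 and 24.8 CPM in NG2ko and 11.5, 12.9, 12.3 and 13.7 CPM in WT. The groups lay far apart for their spread, with a difference of 0.99 ± 0.07 on the log2 scale (standard error; edgeR adjusted p = 2.69e-05), or 1.99-fold. Of 589 tested genes on chromosome X, 40 were called higher and 38 lower, where 5.45% of all tested genes were higher and 6.75% lower. The part of the sex of the pups in the Slc7a3 difference cannot be told apart from that of genotype.

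Slc7a1 (CAT1, ENSMUSG00000041313, chr5:148327410-148399904, minus strand), the widely expressed member, had 147, 152, 147 and 126 CPM in NG2ko and 119, 123, 114 and 108 CPM in WT. The groups differed by 0.30 ± 0.07 on the log2 scale (standard error; edgeR adjusted p = 0.0166), and the call was lost on leaving out NG2ko replicate 1 (adjusted p = 0.0529), 2 (0.0503) or 3 (0.0541). Slc7a2 (CAT2) had 94.8, 96.6, 46.8 and 47.9 CPM in NG2ko and 55.6, 28.1, 58.5 and 19.4 CPM in WT. Each genotype had 2 higher and 2 lower libraries, and the log2 fold change of 0.83 did not pass (interval -0.26 to 1.91, adjusted p = 0.327, edgeR). By FPKM, Slc7a1 took 46.1% ± 4.18 of the cationic carriers in NG2ko and 55.8% ± 5.52 in WT, and Slc7a3 24.7% ± 3.32 in NG2ko and 18.5% ± 3.54 in WT (SD, n = 4 each).

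The glycine carrier Slc6a9 (GlyT1, ENSMUSG00000028542, chr4:117834506-117875198, plus strand) rose 1.52-fold. It had 73.7, 80.2, 75.8 and 73.0 CPM in NG2ko and 50.1, 52.6, 42.2 and 53.9 CPM in WT, without overlap, a difference of 0.61 ± 0.08 on the log2 scale (standard error; edgeR adjusted p = 0.000724). On the opposite strand it overlaps B4galt2, which had 57.5 ± 1.36 CPM in NG2ko and 57.7 ± 4.94 CPM in WT (SD, n = 4 each, adjusted p = 0.980, edgeR). Whether counting used the strand is not given in the sources used here.

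No other Slc6 member was called. The taurine carrier Slc6a6 was the most abundant of the family per length, and had 304, 323, 325 and 287 CPM in NG2ko and 326, 319, 290.3 and 329 CPM in WT and a log2 fold change of -0.03 (interval -0.16 to 0.10). The X-linked creatine carrier Slc6a8 had 81.5, 105, 85.6 and 87.7 CPM in NG2ko and 184, 97.0, 104 and 142 CPM in WT. WT replicates 1 and 4 were high, and the other WT libraries lay within the NG2ko range. Its log2 fold change was -0.55 (adjusted p = 0.146, edgeR), and DESeq2 gave an adjusted p of 0.0161. Without WT replicate 1 it was -0.35. Slc6a2, Slc6a7, Slc6a15 and Slc6a17, carriers of noradrenaline, proline and neutral amino acids, were tested at means of 0.449 to 2.73 CPM and did not pass.

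In the Slc43 family, Slc43a1 (LAT3, a facilitative carrier of leucine and other branched-chain amino acids; ENSMUSG00000027075, chr2:84838850-84863594, plus strand) rose at a low level. It had 5.92, 6.07, 5.59 and 5.19 CPM in NG2ko and 2.96, 3.24, 3.47 and 3.35 CPM in WT. That difference was 0.81 ± 0.11 on the log2 scale (standard error; edgeR adjusted p = 0.00128), or 1.75-fold, and 0.34 in the fit of log2 FPKM with a pseudocount of 1, which is above the FPKM level of the gene. Slc43a3, a nucleobase carrier that lies near it on the chromosome, had 12.9, 15.4, 12.02 and 11.7 CPM in NG2ko and 12.9, 14.1, 13.6 and 15.7 CPM in WT and did not pass. Slc43a2 (LAT4) had 12.6, 12.2, 10.7 and 3.71 CPM in NG2ko and 12.6, 14.8, 2.94 and 11.9 CPM in WT, with a single low library in each genotype and a log2 fold change of -0.11.

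**Figure D4:**
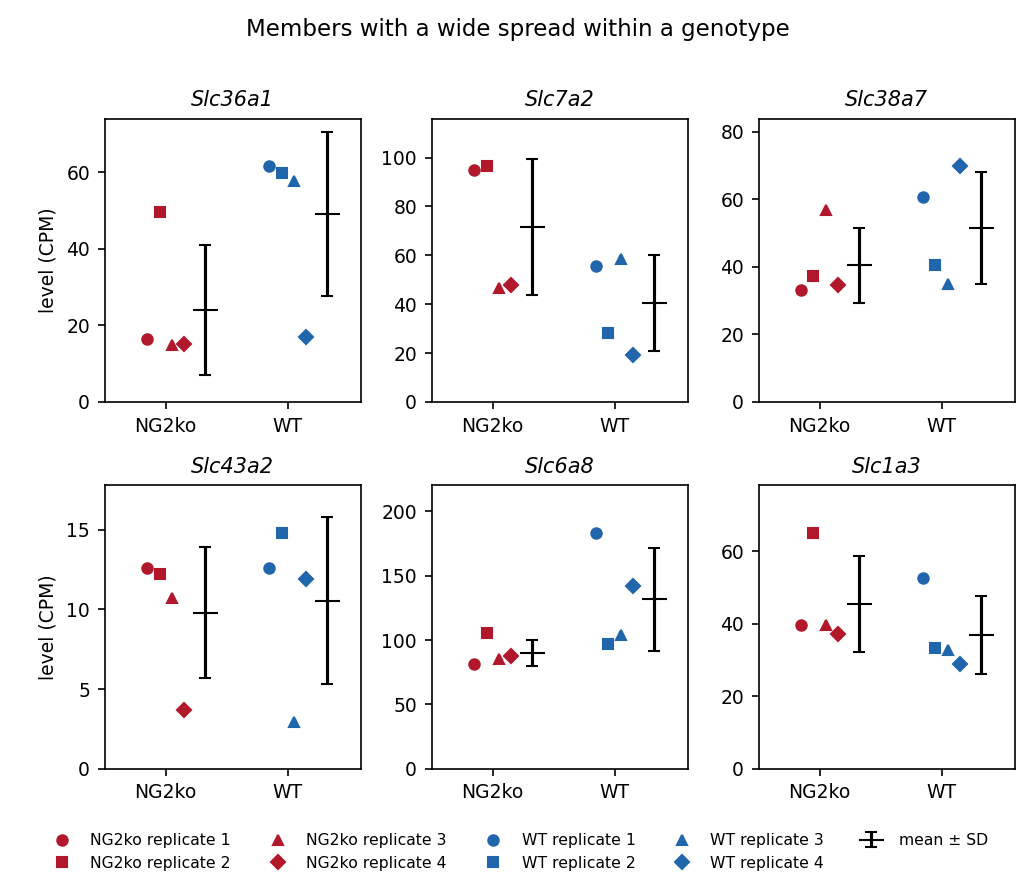
Level in each library, in CPM on axes that start at 0, of 6 transporters chosen after their values were seen for a wide spread within a genotype, with NG2ko in red, WT in blue and the mean with its SD (n = 4) in black. Slc36a1 has NG2ko replicate 2 at 49.6 CPM and WT replicate 4 at 17.0 CPM, each near the other genotype, and Slc7a2 falls into 2 pairs of libraries in each genotype.

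The remaining 28 transporters were not tested. Of these, 17 had 0 counts in every library, among them the neuronal dopamine, serotonin and glycine carriers Slc6a3, Slc6a4 and Slc6a5, and the other 11 had at most 23 counts in any library and at most 0.337 CPM. The kidney and gut heavy chain Slc3a1 had counts in 3 of 8 libraries. Per length, Slc3a2 led in both genotypes (101.4 FPKM in NG2ko and 74.3 FPKM in WT), followed by Slc7a5 (79.1 and 56.6 FPKM), Slc38a10 (48.5 and 53.8 FPKM), Slc1a4 (35.3 and 34.0 FPKM) and Slc6a6 (33.6 and 33.3 FPKM). In WT, Slc7a5 and Slc38a10 were 56.6 ± 3.85 and 53.8 ± 5.83 FPKM (SD, n = 4 each), closer than their spread, as were Slc1a4 and Slc6a6 in WT.

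A list of 25 genes of the amino acid response held genes known to respond to shortage and also kinases upstream of ATF4. All were tested, and 16 were called higher and 0 lower by edgeR, where 5.45% of all tested genes were higher and 6.75% lower. Over the 25 the median was 0.30 on the log2 scale, against 0.02 over all tested genes. At an unadjusted p under 0.05 there were 18 higher and 1 lower (Eif2ak3, an upstream kinase). Over the other fits run, DESeq2 among them, 13 to 17 were called higher and 0 or 1 lower. Of the 13599 to 26212 genes tested in those fits, 613 to 1263 were called higher and 838 to 1544 lower. Trib3, a pseudokinase that ATF4 induces, had 131 ± 4.59 CPM in NG2ko and 77.5 ± 5.04 CPM in WT (SD, n = 4 each; log2 fold change 0.75, adjusted p = 3.38e-05, edgeR). Atf3, a transcription factor of the same response, had 14.3 ± 1.10 CPM in NG2ko and 7.81 ± 0.922 CPM in WT, a log2 fold change of 0.87. Cth, which makes cysteine, had 32.6 ± 1.82 CPM in NG2ko and 22.4 ± 1.90 CPM in WT, and Asns, asparagine synthetase, had 266 ± 11.8 CPM in NG2ko and 210.1 ± 8.13 CPM in WT. Atf4 itself had 304, 604, 261 and 257 CPM in NG2ko and 476, 224, 266 and 263 CPM in WT, with a single high library in each genotype. Its log2 fold change of 0.21 ± 0.38 (standard error) did not pass (adjusted p = 0.791, edgeR) and is unresolved at this spread. The list and the transporters were both chosen with earlier results of these data known, and the part of the myeloid transcripts, higher in the same libraries, in this list was not tested.

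Genes of the machinery that senses amino acids at mTORC1 were called about as often as all tested genes, of which 5.45% were higher and 6.75% lower. Of 31 genes tested, 1 was called higher (Seh1l, 67.1 ± 0.724 CPM in NG2ko and 60.1 ± 1.67 CPM in WT) and 2 lower, Castor1, a cytosolic arginine sensor (22.1 ± 0.841 CPM in NG2ko and 28.2 ± 2.20 CPM in WT), and Mtor (51.5 ± 2.90 CPM in NG2ko and 61.4 ± 3.86 CPM in WT; SD, n = 4 each). The median log2 fold change of the list was -0.05. The call of Seh1l was lost on leaving out any library except WT replicate 2, and 1 to 3 genes of the list were called lower over the other fits run.

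Of 15 tested partners and regulators of the carriers, with genes of glutathione and glutamine metabolism among them, 5 were called lower and 1 higher, where 6.75% of all tested genes were called lower and 5.45% higher. Their median log2 fold change was -0.19. Those called lower numbered 2 without NG2ko replicate 3 and 3 without NG2ko replicate 1 or 4 or WT replicate 1 or 3. Nedd4l, a ubiquitin ligase that acts on membrane transporters, had 28.2 ± 0.801 CPM in NG2ko and 39.7 ± 2.07 CPM in WT (log2 fold change -0.50, adjusted p = 0.000457, edgeR). Bsg, a membrane glycoprotein found with Slc3a2, had 523 ± 21.4 CPM in NG2ko and 641 ± 31.1 CPM in WT, and Glul, glutamine synthetase, had 26.8 ± 0.586 CPM in NG2ko and 31.8 ± 0.966 CPM in WT. Gclc and Arl6ip5 were the other 2 called lower. The gene called higher was Ggt5, a cell surface enzyme that cleaves glutathione conjugates, at 5.11 ± 0.564 CPM in NG2ko and 2.34 ± 0.394 CPM in WT (SD, n = 4 each). Of 14 tested amino acid carriers from other families, 1 was called higher, the lysosomal peptide and histidine carrier Slc15a3 at 1.02 ± 0.160 CPM in NG2ko and 0.417 ± 0.205 CPM in WT, and 0 lower, a share near the 5.45% of all tested genes called higher. The call of Slc15a3 was lost on leaving out any library except WT replicate 1. At an unadjusted p under 0.05 in edgeR there were 3 higher and 1 lower, and 1 was called lower by DESeq2 and without WT replicate 4. Myeloid marker transcripts were higher in the same libraries, as given above, and their part in Ggt5 and Slc15a3 was not tested.

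**Figure D5:**
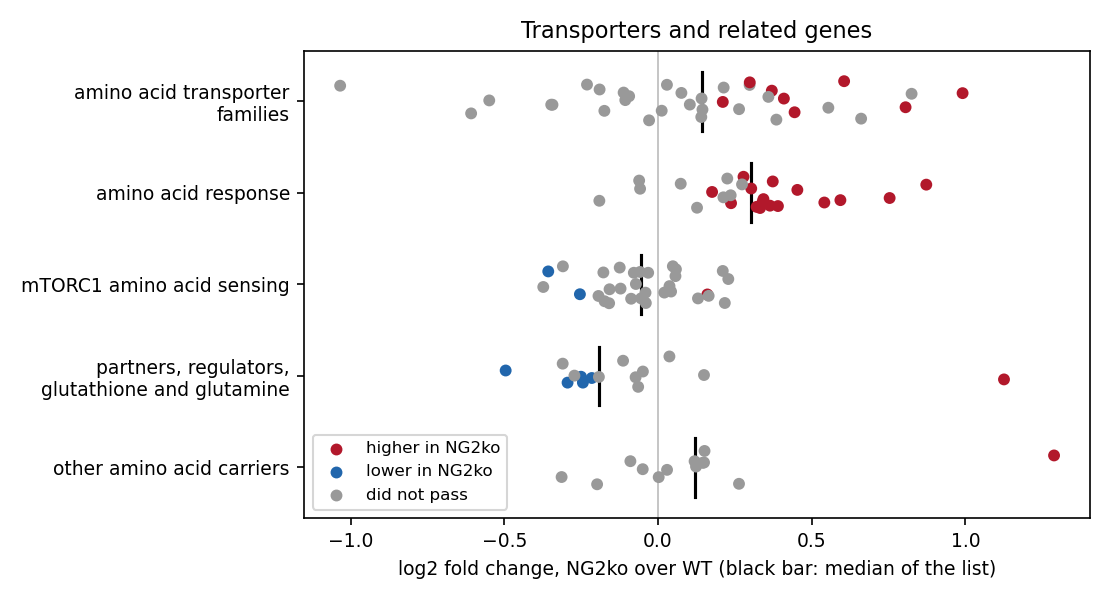
Log2 fold change of NG2ko over WT for the tested transporters and 4 lists of related genes, 1 point for each gene, with genes called higher in red, called lower in blue and others grey, and the median of each list as a black bar. The amino acid response list lies furthest to the right (median 0.30, 16 of 25 called higher) and the partners and regulators furthest to the left (median -0.19).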

How the data were processed

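RNA of primary mandibular fibrochondrocytes was sequenced in 4 NG2ko and 4 WT libraries (stranded poly(A) libraries, paired ends). After removal of adapter and poor reads and a FastQC check, the authors aligned reads to the GRCm38 genome (Ensembl release 101) by HISAT2, and built and quantified transcripts by StringTie and edgeR, versions not given in the sources used here. The deposited table holds raw gene counts and the authors' FPKM for each library. The program that made the counts is not given. Small counts cluster at multiples of 4 (7729 values of 4 against 2336 of 3 and 1315 of 5), so 1 count may not be 1 read pair, and the reason was not tested. All 277116 counts of 0 have an FPKM of 0.0001.

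Counts were fitted with edgeR 4.0.16 (R 4.3.3): filterByExpr with a count minimum of 10, TMM scaling, a robust quasi-likelihood test on genotype, and Benjamini-Hochberg adjustment over all 17190 genes tested. Standard errors were computed from the log2 fold change and F, as its size over root F. The code was tested on simulated counts. Groups and replicate numbers came from the labels, and the study names the 4 libraries of a genotype biological replicates. Alternatives left out each library, added a replicate block, or used another filter or scaling, DESeq2 1.42.0, limma-voom and a limma trend fit of log2 FPKM (limma 3.58.1; pseudocounts 0.1 and 1), no robust prior, and no chromosomes X and Y. FPKM served for levels between genes. Values of each library were given for the transporters called and those whose mean reached 10 CPM in either genotype. Some other transporters, Slc38a9 and Slc7a7 among them, were named outside this rule and in less detail. From related lists, up to 4 genes with the smallest p were named, and Atf4, Ggt5, Slc15a3, Arl6ip5 and Gclc where a count called for it. The transporters and all lists were chosen with earlier results of these data known. RefSeq windows were matched by symbol. All 63 transporters matched a RefSeq gene at an overlapping position. Plots used matplotlib 3.10.9 (Python 3.11.15).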

Additional observations from a re-analysis of the deposited data

Results flagged for a closer look

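In 7 of 70 groups of 4 libraries, a library lay so far from the other 3 that its gap to the nearest exceeded Dixon's 95% limit as a share of the group's range. About 1 in 20 such groups would do so by chance. Slc1a5 was 75.5 CPM in WT replicate 4 and 62.9 to 63.7 CPM in the other WT libraries, still below every NG2ko library. Slc36a4 was 47.2 CPM in WT replicate 2 and 40.2 to 41.4 CPM in the other WT libraries. Slc36a1 was 49.6 CPM in NG2ko replicate 2 and 14.8 to 16.5 CPM in the other NG2ko libraries, and 17.0 CPM in WT replicate 4 and 57.8 to 61.7 CPM in the other WT libraries. Slc1a3 was 65.2 CPM in NG2ko replicate 2 and 37.1 to 39.7 CPM in the other NG2ko libraries. Slc1a6 was 19.2 CPM in NG2ko replicate 4 and 17.2 to 17.4 CPM in the other NG2ko libraries. Slc1a4 was 145 CPM in NG2ko replicate 4 and 153 CPM in each of the other NG2ko libraries.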

How the results depend on the processing

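Of the 8 called transporters, Slc3a2, Slc6a9, Slc43a1, Slc7a5 and Slc1a5 kept their direction and call under all 18 alternatives, and Slc7a3 under the 17 that could hold it. The number called higher was 6 to 9 on leaving out each library in turn, 7 without chromosomes X and Y, where Slc7a3 is not in the fit, and 8 under every other alternative. Among all tested genes, 613 of 17494 to 900 of 17577 were called higher on leaving out a library. The main fit called 937 of 17190 higher, and the fit without chromosomes X and Y 897 of 16590. With replicate number as a block, 8 transporters were called higher and 0 lower, and 3 of the partners and regulators were called lower in place of 5. Correlations of deviations from the genotype mean were 0.001, 0.026, 0.026 and 0.044 for same-numbered libraries and -0.03 to 0.016 for other pairs. All were near 0, and the labels do not pair the libraries, so the numbers were not taken to pair samples. DESeq2 called 1 transporter lower, Slc6a8, and every other alternative called 0.

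For the named transporters together, 395 of 412 alternative values kept their direction and side of the threshold, 8 lost a call (Slc7a1 and Slc38a2, given above), 2 gained one (Slc6a8 and Slc36a4) and 7 changed sign, all in genes with no call. Leaving out each library in turn gave log2 fold changes of -0.071 to 0.0064 for Slc6a6, -0.0061 to 0.030 for Slc1a4 and -0.42 to 0.17 for Slc43a2, and Slc6a6 was at 0.0099 and 0.0096 in the FPKM fits with pseudocounts of 0.1 and 1. In those fits the balance of calls over all genes turned, with 1200 higher and 913 lower at 0.1, against 937 and 1160 with counts, while the transporters stayed at 8 and 0. The wide spread of Slc36a1, Slc7a2 and Slc43a2 leaves their differences unresolved with 4 libraries a genotype.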
